A study of Arabidopsis thaliana with 9 samples.

Results

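BCAT4 (locus AT3G19710, on chromosome 3) and UGT74C1 (locus AT2G31790, on chromosome 2) are enzyme genes of glucosinolate synthesis, and their transcript signals were followed across untreated Arabidopsis thaliana seedlings of 3 genotypes. The probe sets were taken by name from the probe-to-gene annotation of the array, and a probe set had to name exactly the gene in question. Each gene was named by 1 probe set, so the genes are 2 of 13350 that a tested probe set names alone, and their probe sets are 2 of the 22746 tested. The annotation lists the second gene by its locus code only, and UGT74C1 is its name in the enzyme family.

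Each genotype had 3 arrays, described as biological replicates. One group was untransformed wild type, one was line 22 expressing the rice gene OsSAP11, a stress-associated protein with A20 and AN1 zinc fingers, and one was line 25 expressing the rice gene OsRLCK253, a receptor-like cytoplasmic kinase. All 9 samples carried the ecotype label col 1, came from whole seedlings grown for 21 days on half-strength MS medium with no antibiotic selection, and received no stress treatment. Each transgene was represented by 1 line, so the effects of line and transgene cannot be told apart, and the promoter that drives each transgene is not given in the sources used here.

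Glucosinolates are sulfur-rich defence compounds of the cabbage family, stored intact and split by myrosinases when tissue is damaged. The aliphatic kind is built from methionine in 3 stages, which are lengthening of the side chain, assembly of the core structure and modification of the side chain. BCAT4 encodes the aminotransferase that converts methionine to its 2-oxo acid and so starts the lengthening. UGT74C1 encodes a glucosyltransferase that adds glucose to the sulfur of the thiohydroximate, late in core assembly, a step it shares with UGT74B1. In leaves, aliphatic glucosinolate genes are known to be driven by R2R3 MYB factors acting together with the bHLH factors MYC2, MYC3 and MYC4.

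UGT74C1 was higher in both transgenic lines than in wild type, by 1.37-fold in the OsSAP11 line and 1.4-fold in the OsRLCK253 line. BCAT4 had higher mean signals in both lines as well, by 1.16-fold and 1.24-fold, but neither difference passed the test. The lines did not differ detectably from each other for either gene. These folds are on the scale of log2(signal + 16), which hardly changes them at the signals of these genes.

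The UGT74C1 signals were 474, 495 and 551 on the wild type arrays, 674, 660 and 765 on the OsSAP11 arrays, and 627, 766 and 750 on the OsRLCK253 arrays. Every array of both lines was above the highest wild type array, and the arrays of the 2 lines overlapped. The means were 506 ± 39.7 (SD, n = 3), 700 ± 57.1 and 714 ± 76. The log2 difference from wild type was 0.45 ± 0.098 (SE, adjusted p = 0.0273, limma) in the OsSAP11 line, with a 95% interval from 0.22 to 0.69. It was 0.48 ± 0.098 (adjusted p = 0.0209) in the OsRLCK253 line, with an interval from 0.25 to 0.71. A call here and below is an adjusted p under 0.05 over all 22746 tested probe sets.

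The BCAT4 signals were 2824, 2672 and 2492 on the wild type arrays, 3017, 3051 and 3194 on the OsSAP11 arrays, and 2793, 3362 and 3842 on the OsRLCK253 arrays. The OsSAP11 arrays were all above wild type, while OsRLCK253 replicate 1 lay inside the wild type range and OsRLCK253 replicate 3 was the highest of all 9. The means were 2663 ± 166 (SD, n = 3), 3087 ± 93.9 and 3332 ± 525, so that the spread was widest in the OsRLCK253 line. The log2 difference from wild type was 0.21 ± 0.11 (SE, adjusted p = 0.308) in the OsSAP11 line, with a 95% interval from -0.05 to 0.48. In the OsRLCK253 line it was 0.31 ± 0.11 (adjusted p = 0.123, unadjusted p = 0.0274 from the limma model), with an interval from 0.05 to 0.58.

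**Figure D1:**
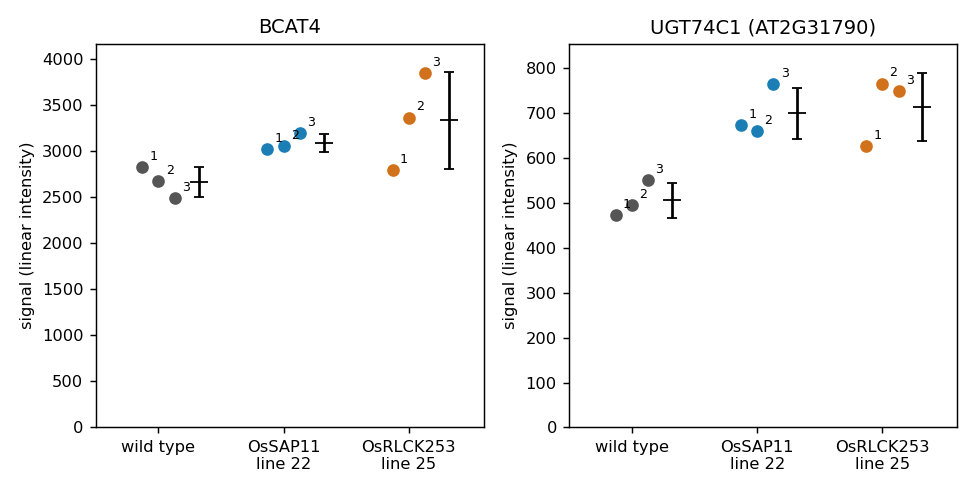
Signal (linear intensity, y axis from 0) of BCAT4 and UGT74C1 on each array by genotype (x axis). Points are arrays with their replicate number, and bars to the right of each group give the mean and the SD of 3 arrays. For UGT74C1 the 6 arrays of the lines lie between 627 and 766, above the highest wild type array at 551, whereas for BCAT4 OsRLCK253 replicate 1, at 2793, lies below the highest wild type array at 2824.

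The order of mean signals was the same for both genes, with wild type lowest, the OsSAP11 line next and the OsRLCK253 line highest. For UGT74C1 only the step from wild type to the OsSAP11 line passed the test. Between the lines UGT74C1 differed by -0.026 ± 0.098 (OsSAP11 minus OsRLCK253, adjusted p = 0.865), with a 95% interval from -0.26 to 0.21. For BCAT4 neither step passed, and the difference between the lines was -0.098 ± 0.11 (adjusted p = 0.557), with an interval from -0.36 to 0.17. Whether UGT74C1 changed more than BCAT4 was not tested.

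The differences were then set beside those of all probe sets. A call was made for 12.6% of the tested probe sets in the OsSAP11 comparison (7.44% higher and 5.17% lower), for 13.8% in the OsRLCK253 comparison (6.95% higher and 6.85% lower) and for 5.21% between the lines. Among the 2309 probe sets with a mean signal at or above that of UGT74C1, the shares called higher were 14.9% for OsSAP11 and 16.6% for OsRLCK253. All 3 arrays of the line lay above all 3 of wild type for 17.8% of tested probe sets with OsSAP11 and 34% with OsRLCK253. In each line taken alone, the separation of the UGT74C1 arrays is thus common over all tested probe sets, dim ones included. How common it is in both lines at once was not taken. Its share among probe sets as bright as UGT74C1 was not taken. The median change of probe sets called higher was 0.52 in the OsSAP11 comparison and 0.55 in the OsRLCK253 comparison, and 62.9% and 58.8% of them changed more than UGT74C1 did. The shares with a larger change than the BCAT4 difference, which was not called, were 96.3% and 84.2%. A probe set called higher in both lines was found for 3.87% of those tested. The 2 comparisons share the wild type arrays, so a wild type value that is low by chance raises both differences.

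Within the transgenic lines the arrays ranked alike for both genes at 1 end only. OsSAP11 replicate 3 was the highest of its line for both, 0.26 above the wild type mean for BCAT4 and 0.58 above it for UGT74C1 on the log2 scale. OsRLCK253 replicate 1 was the lowest of its line for both, at 0.071 for BCAT4 and 0.3 for UGT74C1. At the other ends the arrays differed, since the lowest OsSAP11 array was replicate 1 for BCAT4 (0.18) and replicate 2 for UGT74C1 (0.38), and the highest OsRLCK253 array was replicate 3 for BCAT4 (0.53) and replicate 2 for UGT74C1 (0.58). In wild type the order was opposite, with replicate 1 highest for BCAT4 and lowest for UGT74C1. OsRLCK253 replicates 1 and 3 also had the lowest weights of the 9 arrays, 0.376 and 0.3, when arrays were weighted by their fit over all probe sets, against 0.737 to 3.07 for the other arrays.

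Whether UGT74C1 was called in either line, and BCAT4 in the OsRLCK253 line, depended on single arrays. BCAT4 in the OsSAP11 line was not called in any of the 9 fits that left out 1 array (adjusted p = 0.108 to 0.577). Without OsRLCK253 replicate 1, BCAT4 rose by 0.43 on the log2 scale in that line and was called (adjusted p = 0.0184), and with array weights its difference of 0.33 was called too (adjusted p = 0.0187). UGT74C1 kept its direction in every fit that left out 1 array, with differences from 0.39 to 0.51 in the OsSAP11 comparison and 0.43 to 0.57 in the OsRLCK253 comparison. Its call was lost in 5 of 9 such fits in the OsSAP11 comparison, namely without any one of the 3 OsSAP11 arrays, wild type replicate 1 or wild type replicate 2 (adjusted p = 0.0562 to 0.0923). In the OsRLCK253 comparison the call was lost in 4 of 9, without OsRLCK253 replicate 2 or 3 or wild type replicate 1 or 2 (adjusted p = 0.061 to 0.074).

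**Figure D2:**
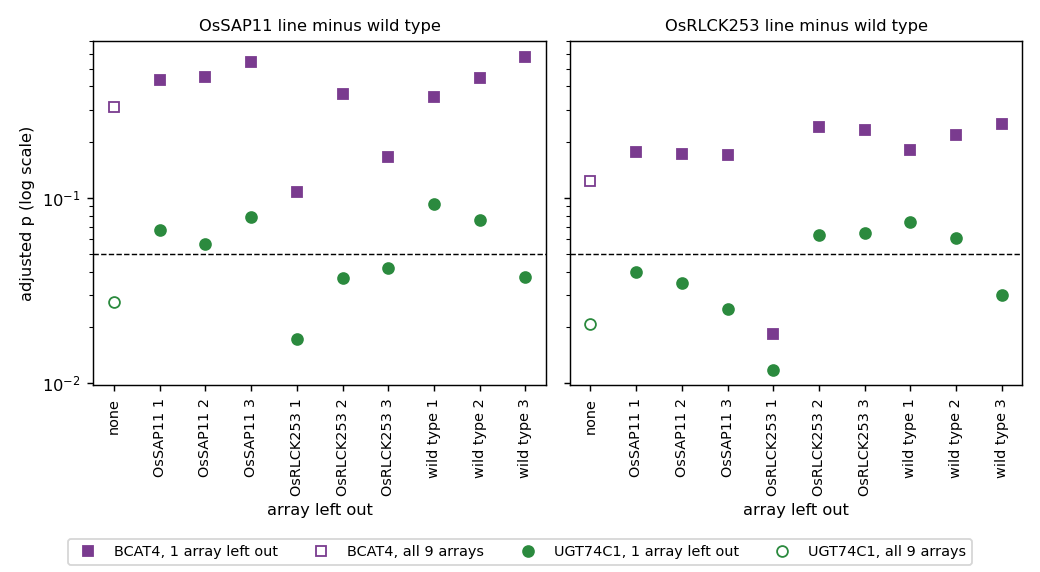
Adjusted p (y axis, log scale) of BCAT4 (squares) and UGT74C1 (circles) against wild type with all 9 arrays (open symbols) and with 1 array left out (filled symbols, x axis). The dashed line is the threshold of 0.05. UGT74C1 lies on both sides of the line, up to 0.0923 in the OsSAP11 comparison and 0.074 in the OsRLCK253 comparison, and BCAT4 falls below it in 1 fit, at 0.0184 without OsRLCK253 replicate 1.

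The other genes of the pathway were taken from 6 lists of 81 genes, for chain elongation, core structure, side-chain modification, regulators, transport and breakdown. Only 13 of the 81, the 2 genes above included, had a probe set that names them alone, so the pathway was seen in part. Of these 13, 5 were called higher and 1 lower in the OsSAP11 line, and the numbers were the same in the OsRLCK253 line. Over all tested probe sets the shares called higher were 7.44% and 6.95%, and among those at least as bright as UGT74C1 they were 14.9% and 16.6%. The shares called lower over all tested probe sets were 5.17% and 6.85%. The median log2 change of the 13 was 0.21 and 0.23, against -0.0021 and 0.014 over all tested probe sets, and 0.044 and 0.048 for the 11 genes without BCAT4 and UGT74C1. Without OsSAP11 replicate 1 the OsSAP11 count fell from 6 to 3, as UGT74C1, GSTU20 and GTR2 lost their calls.

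The other measured core-structure genes also rose. UGT74B1, the better known S-glucosyltransferase of the same step, had signals of 705, 732 and 695 in wild type, 952, 1065 and 1127 in the OsSAP11 line and 989, 1090 and 1129 in the OsRLCK253 line. All arrays of both lines were above wild type, and the log2 changes were 0.55 ± 0.072 (SE, adjusted p = 0.00478) and 0.58 ± 0.072 (adjusted p = 0.00315). GSTU20, a glutathione transferase placed before the glucosyl step, rose by 0.43 ± 0.081 (adjusted p = 0.0173) and 0.65 ± 0.081 (adjusted p = 0.00323). Its call in the OsSAP11 line was lost without OsSAP11 replicate 1 or wild type replicate 3 (adjusted p = 0.0507 and 0.0562). All 3 measured core-structure genes of 18 listed, UGT74C1 included, were thus called higher in both lines, as were 3.87% of all tested probe sets. Among probe sets at least as bright as UGT74C1, the shares called higher were 14.9% with OsSAP11 and 16.6% with OsRLCK253. The UGT74C1 calls were lost in 5 and 4 of the 9 fits that left out 1 array. BCAT4 was the only measured gene of 9 listed for chain elongation.

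Of the 3 measured regulators, MYC4 was called higher and AT1G04770 lower in both lines. Of all tested probe sets, 7.44% were called higher and 5.17% lower with OsSAP11, and 6.95% higher and 6.85% lower with OsRLCK253. The share called higher in both lines was 3.87%. MYC4 had signals of 63.5, 69.9 and 76.4 in wild type, 191, 167 and 174 in the OsSAP11 line and 136, 143 and 167 in the OsRLCK253 line, with log2 changes of 1.17 ± 0.089 (SE, adjusted p = 0.000852) and 0.94 ± 0.089 (adjusted p = 0.00114). AT1G04770, which has no name in the gene tables used, had signals of 1023, 904 and 1230 in wild type, 308, 232 and 229 in the OsSAP11 line and 370, 236 and 219 in the OsRLCK253 line. It fell by 1.97 (SE 0.22, adjusted p = 0.00292) and 1.9 (SE 0.22, adjusted p = 0.00253) on the log2 scale, the widest change of the 13 in either line. MYC3 had differences of 0.23 and -0.11 and did not pass.

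For transport, GTR2, a plasma membrane importer of glucosinolates, was called higher in both lines, by 0.35 ± 0.081 (adjusted p = 0.0358) and 0.32 ± 0.081 (adjusted p = 0.0428). These calls were lost in 7 and 8 of the 9 fits that left out 1 array, with adjusted p up to 0.112 and 0.113. Its relative GTR1 had differences of -0.14 and -0.12 and did not pass. Neither of the 2 measured breakdown genes passed, PYK10 (a beta-glucosidase of ER bodies) with 0.044 and 0.23 and BGLU28 with -0.47 and 0.048. Of the 2 side-chain genes, AOP3 had signals from 5.73 to 6.67 on all arrays, near the lowest of the array, and AT2G25450 had differences of 0.02 and -0.42 that did not pass. Between the lines none of the 13 was called by limma. An unadjusted limma p under 0.05 was found for 5 of the 13 and for 6006 of all 22746 tested probe sets. With array weights 5 of the 13 were called, as were 5201 of the 22746.

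**Figure D3:**
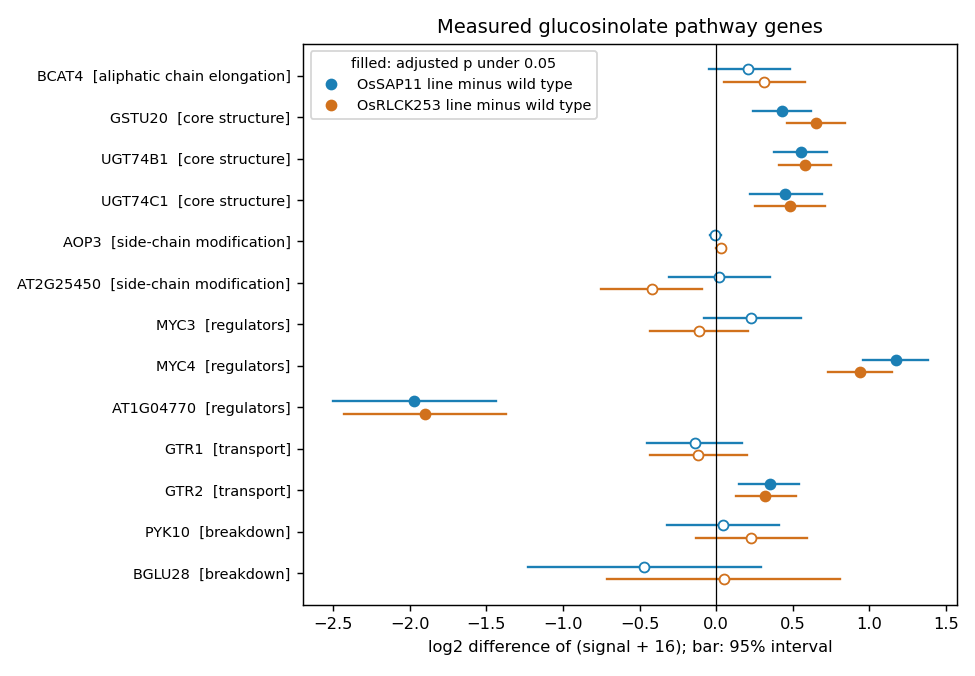
Log2 difference of (signal + 16) from wild type (x axis) for the 13 measured pathway genes (rows, with their list in brackets), for each transgenic line. Bars are 95% intervals of the model, and filled points have an adjusted p under 0.05. UGT74C1 lies at 0.45 and 0.48 with intervals above 0, the BCAT4 points at 0.21 and 0.31 are open, and AT1G04770 lies far to the left at -1.97 and -1.9.

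Relatives of the 2 enzymes were measured in part. In the BCAT family, 3 of 7 genes had a probe set. BCAT5 (a plastid branched-chain aminotransferase) differed by 0.18 ± 0.04 (adjusted p = 0.0326) in the OsSAP11 line and 0.061 ± 0.04 (adjusted p = 0.34) in the OsRLCK253 line, and lost the first call in 7 of 9 fits that left out 1 array (adjusted p up to 0.0909). AT1G50110 was not called in either line, with 0.29 and 0.16. In the UGT74 family, 4 of 7 genes had a probe set and 3 of them, UGT74B1, UGT74C1 and UGT74D1, were called higher in both lines. Over all tested probe sets the share called higher in both lines was 3.87%. The UGT74C1 calls were lost in 5 and 4 of the 9 fits that left out 1 array. UGT74D1, known to glucosylate auxins, rose by 0.67 ± 0.12 (adjusted p = 0.0125) and 0.85 ± 0.12 (adjusted p = 0.00455). UGT74F1, a salicylic acid glucosyltransferase, had signals from 5.69 to 6.17 on all arrays and did not pass. Whether probes of related UGT74 genes pick up each other's transcripts was not tested.

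UGT74D1 is also the nearest measured gene before UGT74C1 on chromosome 2, with 3 protein-coding genes between them. On the other side lies the adjacent gene AT2G31800, which was called lower in the OsRLCK253 line, with -0.67 ± 0.099 (adjusted p = 0.00618). In the OsSAP11 line its difference of -0.38 ± 0.099 was not called (adjusted p = 0.0513). Next to BCAT4, IKU2, a receptor-like kinase gene of seed development, had signals from 5.35 to 6.9 and was not called. The gene measured after it, AT3G19740, has 2 probe sets that differ. Its brighter one, with signals from 213 to 369, gave 0.37 (adjusted p = 0.0576) and 0.44 (adjusted p = 0.0297), and its dimmer one, with signals from 5.65 to 8.84, gave 0.077 and 0.0071. The call of the brighter probe set in the OsRLCK253 line was lost in 5 of 9 fits that left out 1 array.

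The genes most like each of the 2 were ranked by the root mean square difference of log2(signal + 16) over the 9 arrays, each gene taken relative to its own mean. This is a description, and the 9 arrays share their 3 groups. For BCAT4 the nearest gene was AT1G68660 at 0.0409, with signals of 1445, 1407 and 1299 in wild type, 1586, 1634 and 1796 in the OsSAP11 line and 1422, 1725 and 1999 in the OsRLCK253 line. As for BCAT4, its OsRLCK253 replicate 1 was within the wild type range and its OsRLCK253 replicate 3 was the highest of all arrays. The ranking selects for this likeness. AT3G47250, AT5G44390, AT1G52590 and AT1G21440 followed at 0.0712 to 0.079, and AT5G44390 was dim, with signals from 6.46 to 16.5. For UGT74C1 the nearest were AT4G19670 at 0.0687, then AT1G74300, AT1G77090, AT5G53440 and the metal transporter gene MTP11, at 0.072 to 0.0865. All arrays of both lines were above wild type for these 5 genes. They were chosen for closeness to UGT74C1, which has the same separation, so this is no finding. BCAT4 and UGT74C1 differed from each other by 0.153, which put UGT74C1 at place 1063 of 13512 probe sets that name 1 other gene from BCAT4 and BCAT4 at place 223 from UGT74C1. The median over these probe sets was 0.189 from BCAT4 and 0.243 from UGT74C1.

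**Figure D4:**
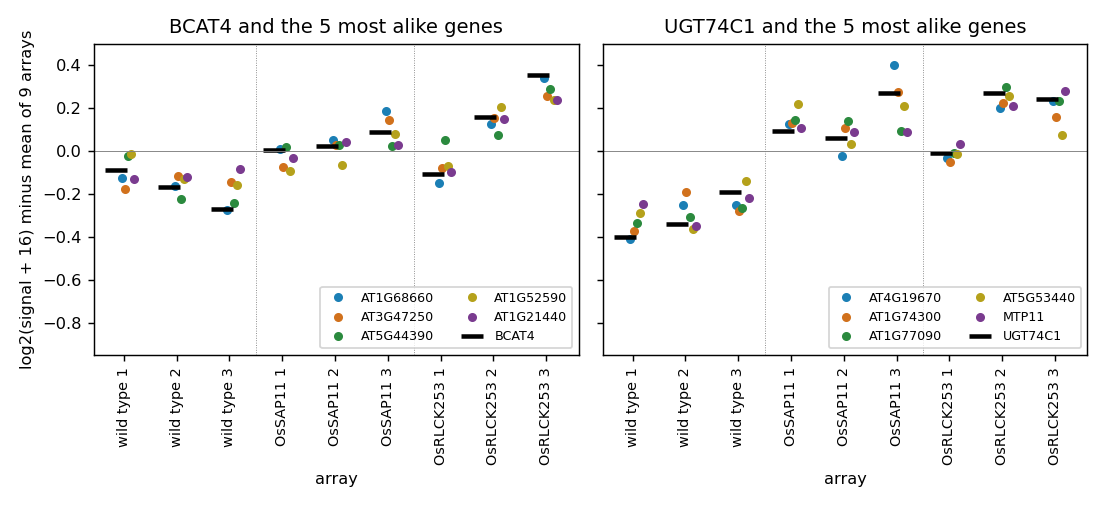
Log2(signal + 16) minus its mean over 9 arrays (y axis) on each array (x axis), for BCAT4 and UGT74C1 (black bars) and the 5 genes nearest to each (coloured points). Dotted lines part the groups. The 5 genes were chosen for lying close to the black bars, so their closeness is no finding. All 6 genes of the UGT74C1 panel lie below 0 on the 3 wild type arrays, which the choice also favours.

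The 3 measured leaf markers of 9 listed, LHCB4.2, RCA and PRK, were bright on all arrays, with signals from 7128 to 26442. All 3 were called higher in both lines, by 0.24 to 0.74 and 0.24 to 0.78, as were 3.87% of all tested probe sets. The shares called higher in each line were 7.44% and 6.95% of all tested probe sets. Among probe sets at least as bright as UGT74C1, the shares called higher were 14.9% and 16.6%. PRK lost its calls in 5 and 4 of 9 fits that left out 1 array, with adjusted p up to 0.0922 and 0.0877. Of the 3 measured root markers of 10 listed, EXPA7 was called higher in the OsRLCK253 line, by 0.74 with signals from 5.41 to 29, and that call was lost in 7 of 9 such fits (adjusted p up to 0.113). The root markers EXPA18 and AT1G73160 were not called, and AT1G73160 had signals from 5.37 to 8.37. None of the 9 listed flower and seed markers was measured. In whole seedlings, a change in the share of a tissue and a change of RNA per cell cannot be told apart. The 18 probe sets for hybridisation spike-ins were lower in both lines, with median log2 differences of -0.26 and -0.17. The log2 ratio of 3' to 5' signals of actin, GAPDH and ubiquitin was higher in 3 of 6 pairs in the OsSAP11 line and 5 of 6 in the OsRLCK253 line, with medians of 0.06 and 0.14, and these control values were given no test. The part of tissue share and of RNA quality in the changes of UGT74C1 was not tested.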

How the data were processed

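Per the labels' protocols, total RNA was labelled as biotinylated cRNA for 9 Affymetrix arrays. The authors deposited linear intensities, and the submitters' processing notes name GCOS. How probes were summarised, corrected for background and scaled is unknown here. After 64 control probe sets were set aside, 22746 of 22810 were tested without a minimum signal. The annotation names 1 gene for 13513 of them, several for 503 and none for 8730, and 13436 of the 13513 were found in RefSeq's TAIR10.1 gene table, used for names and gene order only.

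Array medians differed by 0.0777 on the scale of log2(signal + 16), under the limit of 0.1 for using values as deposited, and by 0.106 on plain log2, so median centring was also run. All 9 arrays entered 1 model of 3 group means (limma 3.58.1, R 4.3.3, with 6 residual and 0.773 prior degrees of freedom), and two-sided p values were adjusted by Benjamini-Hochberg over all tested probe sets. The fit was tested on simulated data. These p values judge each difference of group means against the spread between arrays within the groups, and the number of arrays limits the precision. With 1 line per transgene they do not cover variation between lines. Genes, lists and tests were chosen with earlier results of these data known, and the comparison with equally bright probe sets was added after the values were seen. Named genes are the 2 enzymes, measured list genes, the 5 nearest profiles of each and the nearest measured neighbours. Besides median centring, the model was rerun with quantile normalization, with pseudocounts of 1 or 32, on probe sets with a mean signal of at least 50 in a group, on 2 groups alone, with a trend and robust prior, with array weights, with a replicate block, with the own spread of each probe set, and without each array in turn.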

Additional observations from a re-analysis of the deposited data

How the results depend on the processing

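UGT74C1 (AT2G31790) and BCAT4 kept the direction of their differences from wild type under all alternatives. UGT74C1 lost its call in the OsSAP11 line with quantile normalization (0.45, adjusted p = 0.0513) and in the OsRLCK253 line with 2 groups alone (0.48, adjusted p = 0.0551), and BCAT4 gained one in the OsRLCK253 line with array weights (0.33). The cause was not tested. Leaving out 1 array gave 0.39 to 0.51 and 0.43 to 0.57 for UGT74C1, 0.17 to 0.26 and 0.2 to 0.43 for BCAT4, and differences between the lines, which changed sign, from -0.12 to 0.026 and from -0.22 to 0.01. It gave 1827 to 2875 called probe sets against 2869 in the OsSAP11 comparison, 2040 to 3387 against 3138 in the OsRLCK253 comparison, 449 to 1388 against 1185 between the lines, and 3 to 6 pathway genes against 6 in the OsSAP11 comparison. The counts fell by over 1.5 times in the OsSAP11 comparison when wild type replicate 1 (1827) or one of OsSAP11 replicates 1 and 2 (1863 and 1887) was left out, without wild type replicate 1 in the OsRLCK253 comparison (2040), and without any one OsSAP11 array between the lines (564, 485 and 449). With array weights 5694 probe sets were called in the OsRLCK253 comparison and 5201 between the lines. Between the lines the count was also 1935 with the filter on dim probe sets, 609 with 2 groups alone, 1809 with a trend and robust prior, and 639 with the replicate block. Pathway genes called between the lines were 1 of 12 with that filter and 5 of 13 with array weights. Of all probe sets, 1935 of 11675 and 5201 of 22746 were called there. Median centring moved the share of higher among calls between the lines from 64.1% (760 higher, 425 lower) to 50.5% (830 and 812).

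Replicate numbers showed no clear pairing of the arrays over all tested probe sets. Deviations from the group means of same-numbered arrays correlated from -0.127 to 0.181 over 9 pairs. Of the 9 arrays, 1 correlated best with its own number in both other groups. Whether single genes share a replicate effect was not tested. With the replicate block UGT74C1 differed by 0.45 (adjusted p = 0.0218) and 0.48 (adjusted p = 0.017), and BCAT4 by 0.21 (adjusted p = 0.395) and 0.31 (adjusted p = 0.174). The SE with the block was 0.064 for UGT74C1, against 0.098 without it, and 0.12 for BCAT4, against 0.11. For the other named genes, 2246 of 2430 values under alternatives stayed on their side of the threshold, 129 lost a call, 55 gained one, and 0 called values changed sign.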

Other observations

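Genes of sulfate, methionine and branched-chain amino acid metabolism, which feed into or compete with the pathway, were measured in small part. Of 3 measured genes of 22 listed for sulfate assimilation, the ATP sulfurylase gene APS3 fell by 0.47 (SE 0.086, adjusted p = 0.0148) with OsSAP11, a call lost in 2 of 9 fits that left out 1 array (adjusted p up to 0.0548), and differed by -0.15 with OsRLCK253. APS4, of the same enzyme, differed by -0.57 (adjusted p = 0.0855) and fell by 0.71 (adjusted p = 0.0394), a call lost in 7 of 9 fits that left out 1 array. SIR, the sulfite reductase gene, differed by 0.36 (adjusted p = 0.132) and 0.44 (adjusted p = 0.0665). Of 2 measured genes of 9 listed for methionine metabolism, MGL, whose methionine gamma-lyase breaks methionine down, rose by 0.63 (SE 0.13, adjusted p = 0.0253) in the OsSAP11 line, a call lost in 4 of 9 such fits, and differed by 0.16 in the OsRLCK253 line. CBL, the cystathionine beta-lyase gene, differed by 0.1 and 0.023. Whether APS3 and MGL differ between the lines was tested, and neither was called (-0.32, adjusted p = 0.0863, and 0.46, adjusted p = 0.0999).

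Of 3 measured genes of 11 listed for branched-chain amino acid synthesis, AT2G31810 fell in both lines, by 0.91 (SE 0.13, adjusted p = 0.00682) and 1.13 (SE 0.13, adjusted p = 0.00249). Its signals were 786, 763 and 837 in wild type, 395, 399 and 455 in the OsSAP11 line and 374, 285 and 415 in the OsRLCK253 line. Of all tested probe sets, 5.17% were called lower with OsSAP11 and 6.85% with OsRLCK253. The other genes, AT3G58610 and AT3G23940, had differences from -0.076 to 0.19 and were not called.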
